A study of Homo sapiens with 18 samples.

Results

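The response described here is the change in RNA 6 h after a scratch, averaged over 2 keratinocyte lines. HaCaT is an immortal line from human skin, and TIGK is a line of human gingival keratinocytes immortalised with telomerase. The groups were HaCaT 6 h after scratching, TIGK 6 h after scratching, unscratched HaCaT (0 h) and unscratched TIGK (0 h), with 3 libraries each, so that 12 of the 18 libraries of the series entered the contrast. The contrast is the mean of HaCaT at 6 h minus HaCaT at 0 h and TIGK at 6 h minus TIGK at 0 h, on the log2 scale, each line with its own 0 h. A gene was called where the false discovery rate of that contrast was under 0.05, and it moved the same way where the fitted change also had the same sign in both lines. Of 17409 genes tested, 434 did so, 299 of them higher and 135 lower at 6 h.

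Keratinocytes at a wound edge are known to answer within hours through EGF receptor ligands and ERK, which switch on immediate-early transcription factors such as FOS, JUN and EGR family members. These are followed by genes for the matrix the cells crawl on, the integrins that hold it, and the proteases that cut it. TGF-beta and activin act through SMAD2 and SMAD3 on many of the same matrix genes, while BMPs act through SMAD1 and SMAD5 and induce the ID genes. Both lines are single immortalised lines and stand in for skin and gum only in that sense. The samples analysed here include no unscratched culture at 6 h, so the scratch and the time in culture cannot be told apart, and the labels do not say what share of the cells lay at a wound edge. These are bulk samples, in which a change in the number of cells of one state cannot be told apart from a change of RNA per cell.

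The 12 libraries held 15690679 to 25011331 counted reads. The letter C libraries of TIGK stood apart at both times, with 25161 genes at 6 h and 26246 at 0 h having at least 1 count, against 21164 to 22799 in the other 10. They also held the lowest shares of mitochondrially encoded reads, 4.98% at 6 h and 5.08% at 0 h, against 5.84% to 8.08% in the other 10, and without both of them 299 genes were called higher and 118 lower the same way in both lines. All 12 keratinocyte markers passed the filter on low counts, and their summed level was 45345 to 48835 CPM in HaCaT at 6 h, against 48179 to 49367 CPM in HaCaT at 0 h, and 44047 to 45519 CPM in TIGK at 6 h, against 38164 to 39882 CPM in TIGK at 0 h (CPM, read counts scaled to a common library size). Of the fibroblast markers, 5 of 8 passed that filter, none was called, and their summed level was 21.0 to 23.8 CPM in HaCaT at 6 h, against 24.9 to 29.1 CPM in HaCaT at 0 h, and 240.6 to 289.1 CPM in TIGK at 6 h, against 236.2 to 274.1 CPM in TIGK at 0 h. Their part in the results was not tested.

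In the averaged contrast 317 genes were called higher at 6 h, which is 1.82% of the genes tested, and 146 lower, which is 0.839%. The 299 and 135 genes that also had the same sign in both lines made up 1.72% and 0.775% of the genes tested, and the other 29 called genes had opposite signs in the lines. The averaged contrast can be called on 1 line alone, and opposite changes cancel in it. Having the same sign is therefore no test of a shared response. By each line's own test, 28 of the 299 were called in HaCaT and 242 in TIGK, and of the 135, 5 and 81. Of the 434, 419 were protein-coding. The median averaged log2 fold change was 0.37 among the 299 and -0.34 among the 135, against -0.005 over all genes tested, and 20 of the 299 and 7 of the 135 changed by at least 1 on the log2 scale. Some of these large averages came mainly from 1 line, such as PMEPA1, with 0.21 in HaCaT and 1.94 in TIGK. AC009041.2, with 5.29 in HaCaT and 0.22 in TIGK, rested on few HaCaT counts. The response was larger in TIGK for 359 of the 434 genes (82.7%). The 299 higher genes had a median log2 fold change of 0.22 in HaCaT and 0.48 in TIGK, and the 135 lower genes had -0.25 in HaCaT and -0.43 in TIGK. Taken alone, HaCaT gave 44 calls (0.253% of the genes tested) and TIGK 642 (3.69%). The averaged contrast called 50 of the 299 and 50 of the 135 that neither line called alone.

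In 181 of the 299 higher genes and 63 of the 135 lower genes, the libraries of 6 h and 0 h did not overlap in either line. Over all genes tested, 452 were separated the same way in both lines, which is 2.6%. Both counts leaned on single libraries. Against 135 with all libraries, the count of lower genes was 76 without HaCaT 6 h A and 87 without HaCaT 0 h A. Against 299 with all libraries, the count of higher genes ranged from 211 without HaCaT 0 h B to 344 without TIGK 6 h C. HaCaT alone gave 12, 24 and 18 calls without its 6 h libraries A, B and C, and 10 and 11 without its 0 h libraries A and B. It gave 85 without both letter C libraries of TIGK, which enter the shared estimate of spread, 89 with the letter as a replicate block, 107 with DESeq2 and 121 with no filter on low counts. TIGK alone gave 398 and 367 calls without its 6 h libraries A and B.

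**Figure D1:**
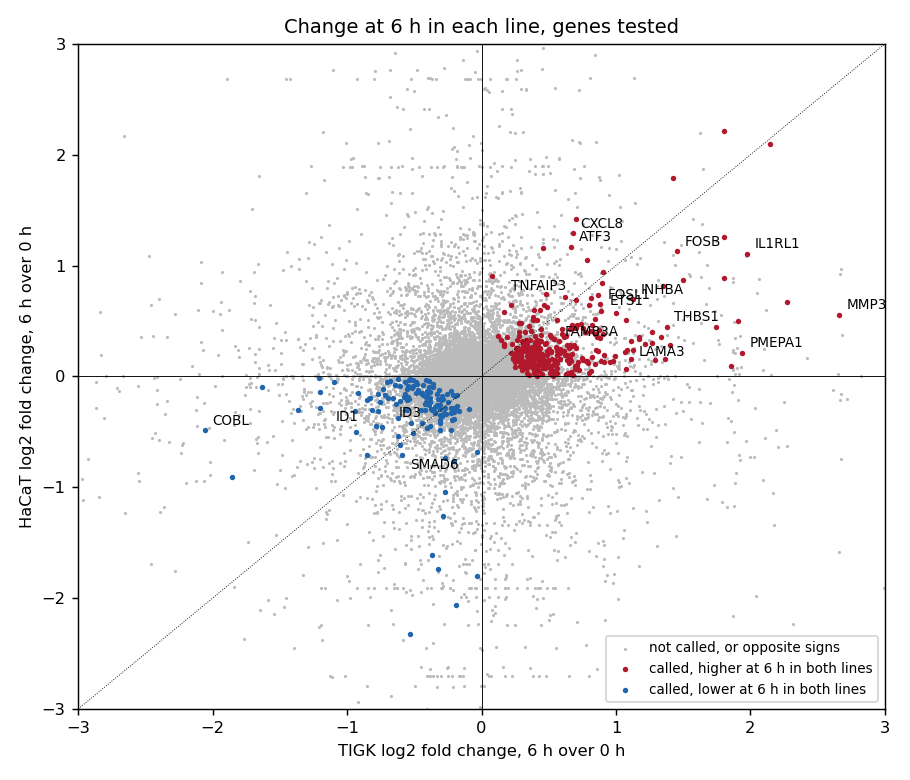
Log2 fold change at 6 h over 0 h in TIGK (x axis) and HaCaT (y axis), 1 point a gene, with the 299 called higher genes in red and the 135 called lower genes in blue, the dotted line marking equal change. Most coloured points lie nearer the TIGK axis, with a larger change in TIGK for 359 of 434, and 170 genes, 7 of them called, lie outside the plotted range of 3 log2 units either way.

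The strictest reading of a shared response is a gene that passes the test in each line separately, which takes the larger of the 2 lines' p-values and adjusts it over all genes tested. 9 genes passed (0.0517%), all higher at 6 h, and TNFAIP3, ETS1, FAM83A, BCAR3, FOSL1, IL1RL1 and HMGA2 of these are described. BCAR3 and HMGA2 fall outside the rule for named genes and were chosen after their values were seen. No gene passed lower, where 95 of the 270 genes at an unadjusted p under 0.05 had fallen values. The count was 3 without HaCaT 0 h B or without HaCaT 6 h A, and 4 without HaCaT 0 h A or without HaCaT 6 h C. It was 18 without both letter C libraries of TIGK, 23 with the letter as a replicate block, 25 with DESeq2 and 26 with no filter on low counts. Values are given below in the order of the letters A, B and C.

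IL1RL1 (hg38 chr2:102311502-102352037), the receptor for interleukin 33, had 36.8, 39.7 and 39.3 CPM in HaCaT at 6 h, against 18.4, 13.3 and 21.96 CPM in HaCaT at 0 h. TIGK had 20.4, 18.8 and 21.3 CPM of it at 6 h, against 4.49, 6.87 and 4.16 CPM in TIGK at 0 h. There was no overlap in either line, with an averaged log2 fold change of 1.54 (SE 0.14, edgeR adjusted p = 7.8e-08). TNFAIP3 (chr6:137867188-137883312), which encodes the ubiquitin-editing inhibitor of NF-kB known as A20, had 58.4, 60.3 and 66.2 CPM in HaCaT at 6 h, against 37.9, 34.7 and 40.5 CPM in HaCaT at 0 h. TIGK had 50.3, 46.9 and 42.4 CPM of it at 6 h, against 24.5, 29.9 and 25.1 CPM in TIGK at 0 h. Its change was nearly equal in the lines, 0.71 in HaCaT and 0.81 in TIGK, and averaged 0.76 (SE 0.07, edgeR adjusted p = 1.6e-08). FOSL1 (chr11:65892049-65900573), which encodes the AP-1 subunit FRA-1, had 318, 266 and 289.7 CPM in HaCaT at 6 h, against 184, 168 and 203 CPM in HaCaT at 0 h. TIGK had 59.96, 61.1 and 68.6 CPM of it at 6 h, against 29.4, 42.6 and 31.2 CPM in TIGK at 0 h. HaCaT lay several times above TIGK at both times, while the averaged log2 fold change was 0.77 (SE 0.08, edgeR adjusted p = 8.7e-07), 0.65 in HaCaT and 0.88 in TIGK.

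ETS1, a transcription factor, had 105, 119 and 106 CPM in HaCaT at 6 h, against 75.6, 66.1 and 77.3 CPM in HaCaT at 0 h. TIGK had 129, 138 and 139.7 CPM of it at 6 h, against 67.2, 78.4 and 74.02 CPM in TIGK at 0 h. The lines were near each other at both times, and the averaged log2 fold change was 0.74 (SE 0.06, edgeR adjusted p = 3.1e-09). FAM83A, whose product is linked to EGF receptor signalling, had 211, 193 and 195 CPM in HaCaT at 6 h, against 147, 128 and 144 CPM in HaCaT at 0 h. TIGK had 215, 193 and 189 CPM of it at 6 h, against 134, 148 and 123 CPM in TIGK at 0 h. The averaged log2 fold change was 0.54 (SE 0.06, edgeR adjusted p = 2.3e-07). BCAR3, an adaptor of adhesion signalling, had 151, 139.8 and 144 CPM in HaCaT at 6 h, against 106, 103 and 113 CPM in HaCaT at 0 h, and 98.7, 93.7 and 94.3 CPM in TIGK at 6 h, against 71.2, 71.8 and 67.7 CPM in TIGK at 0 h. HMGA2, an architectural chromatin protein, had 106, 109 and 108 CPM in HaCaT at 6 h, against 84.3, 80.5 and 84.97 CPM in HaCaT at 0 h, and 209.8, 202 and 206 CPM in TIGK at 6 h, against 145, 152 and 136 CPM in TIGK at 0 h. Both changed less on the averaged log2 scale, BCAR3 by 0.44 (SE 0.05, edgeR adjusted p = 2.1e-06) and HMGA2 by 0.44 (SE 0.05, edgeR adjusted p = 1.3e-06). In each of these 7 genes the 6 h libraries lay above the 0 h libraries in both lines. The adjusted p for a change in each line ranged from 0.00046 for TNFAIP3 to 0.035 for HMGA2 (edgeR, larger of the lines' p-values).

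**Figure D2:**
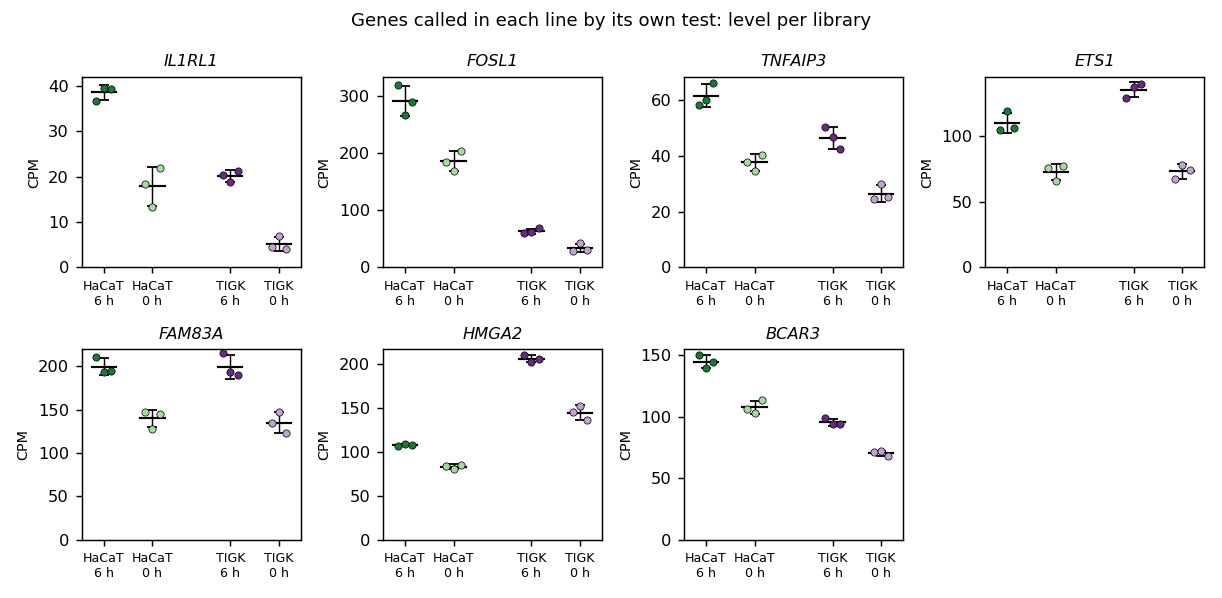
Level in CPM in each library of 7 genes called in each line by its own test, 6 h left of 0 h for HaCaT and TIGK, with bars for the mean and SD of 3 libraries. In all 7 panels the 6 h points lie above the 0 h points of the same line, and the HaCaT points of FOSL1 lie above its TIGK points at both times.

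Of 32 immediate-early and AP-1 genes tested, 15 rose the same way in both lines (46.9%, against 1.72% of all genes tested) and none fell, with a median averaged log2 fold change of 0.34. The lists were chosen with earlier results of these data known, so this share and those of the lists below are descriptions and no test. Some called genes stand in several lists, so the shares are not separate observations. IER3 is in this list and the ERK feedback list, and CYR61 in this list and the YAP and TAZ list. LAMB3 is in the wound matrix and keratinocyte marker lists. FOSB, FOS, JUN and FOSL1 encode AP-1 subunits, ATF3 a stress-induced bZIP factor, EGR1 and EGR3 zinc finger factors, and KLF6 and KLF10 Krüppel-like factors. FOSB had 14.99, 15.2 and 14.3 CPM in HaCaT at 6 h, against 5.38, 4.89 and 10.04 CPM in HaCaT at 0 h, and 4.92, 6.95 and 3.99 CPM in TIGK at 6 h, against 2.09, 1.04 and 2.496 CPM in TIGK at 0 h, and the averaged log2 fold change was 1.29 (SE 0.19, edgeR adjusted p = 8.6e-05). FOS had 17.97, 17.05 and 17.7 CPM in HaCaT at 6 h, against 9.29, 9.91 and 12.5 CPM in HaCaT at 0 h, and 28.1, 28.6 and 17.7 CPM in TIGK at 6 h, against 13.7, 15.7 and 11.6 CPM in TIGK at 0 h. The groups did not overlap in either line for FOSB or FOS, though the lowest 6 h library of TIGK for both was letter C, and FOS averaged 0.80 (SE 0.12, edgeR adjusted p = 0.00016). ATF3 had 10.04, 9.78 and 10.5 CPM in HaCaT at 6 h, against 4.68, 3.900 and 4.87 CPM in HaCaT at 0 h. TIGK had 12.6, 14.3 and 12.2 CPM of it at 6 h, against 7.99, 8.48 and 8.17 CPM in TIGK at 0 h. Its libraries were also fully separated, with a change of 1.17 in HaCaT and 0.67 in TIGK that averaged 0.92 (SE 0.12, edgeR adjusted p = 5.5e-06).

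EGR3 rose by 0.93 (SE 0.17, edgeR adjusted p = 0.00079), with levels under 10 CPM in all 12 libraries. KLF6 averaged 0.59 (SE 0.06, edgeR adjusted p = 2.4e-07) and KLF10 0.47 (SE 0.06, edgeR adjusted p = 1.7e-05). JUN and EGR1, both chosen after their values were seen, averaged 0.59 (SE 0.09, edgeR adjusted p = 0.00049) and 0.45 (SE 0.11, edgeR adjusted p = 0.03). The call for EGR1 was lost in 9 of the 22 alternatives, each of which left out a single library (TIGK 6 h A or B, TIGK 0 h A or C, HaCaT 6 h A, B or C, or HaCaT 0 h A or B). EGR1 had 49.9, 51.3 and 53.1 CPM in HaCaT at 6 h, against 41.3, 36.8 and 45.8 CPM in HaCaT at 0 h. TIGK had 49.6, 44.2 and 35.7 CPM of it at 6 h, against 24.6, 35.1 and 27.3 CPM in TIGK at 0 h. All these genes were separated without overlap in both lines.

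Promoter sequence is shown for 5 risen genes whose RefSeq promoters held a motif of SRF, NF-kB or AP-1, chosen after their values were seen. It runs over the 200 bases before the annotated start (RefSeq, GRCh38.p14), 5′ to 3′ on the gene's strand, with motif matches in capitals. EGR1 (chr5:138465279-138465478, plus strand) holds 2 matches to the CArG box, which serum response factor binds, starting 105 and 83 bases before the start. FHL2 (chr2:105438514-105438713, minus strand, 1 of several RefSeq starts), a LIM protein and SRF target, holds 1 such match, starting 101 bases before. TNFAIP3 (chr6:137867059-137867258, plus strand) holds 2 NF-kB motifs, starting 67 and 55 bases before. LAMA3 (chr18:23872820-23873019, plus strand) holds 2 AP-1 motifs, TGANTCA, starting 125 and 69 bases before, and IL1RL1 (chr2:102337057-102337256, plus strand) holds 1, starting 191 bases before. The LAMA3 and IL1RL1 windows lie at internal starts, inside the span that the files give to the gene, and the TNFAIP3 window overlaps the first bases of that span.
EGR1: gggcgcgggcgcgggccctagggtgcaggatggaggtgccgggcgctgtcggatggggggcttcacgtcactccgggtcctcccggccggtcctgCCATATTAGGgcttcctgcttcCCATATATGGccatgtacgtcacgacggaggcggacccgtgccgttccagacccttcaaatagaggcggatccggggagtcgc
FHL2: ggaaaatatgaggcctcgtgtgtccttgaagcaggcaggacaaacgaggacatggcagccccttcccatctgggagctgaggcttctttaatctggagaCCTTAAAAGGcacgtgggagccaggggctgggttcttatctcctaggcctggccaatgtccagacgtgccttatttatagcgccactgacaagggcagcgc
TNFAIP3: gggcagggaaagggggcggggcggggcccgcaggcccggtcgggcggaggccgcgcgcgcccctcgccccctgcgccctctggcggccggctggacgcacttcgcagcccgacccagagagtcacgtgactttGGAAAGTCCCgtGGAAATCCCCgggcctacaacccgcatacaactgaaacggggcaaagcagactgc
LAMA3: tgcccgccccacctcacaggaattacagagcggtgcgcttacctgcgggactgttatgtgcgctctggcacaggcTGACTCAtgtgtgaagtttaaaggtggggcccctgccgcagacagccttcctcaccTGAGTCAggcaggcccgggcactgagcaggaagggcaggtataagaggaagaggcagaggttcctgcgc
IL1RL1: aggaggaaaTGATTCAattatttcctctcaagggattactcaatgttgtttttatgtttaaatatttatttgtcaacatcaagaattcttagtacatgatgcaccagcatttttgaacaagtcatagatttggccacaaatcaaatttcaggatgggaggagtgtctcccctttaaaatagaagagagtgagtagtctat

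Of the 299 higher genes, 226 matched a RefSeq promoter by symbol and gave 393 promoters, counting each annotated start. Of the 135 lower genes, 113 matched and gave 188. Windows ran over 250 bases before to 50 after the start, on both strands. The CArG box was in 4.07% of promoters of higher genes and 0.532% of those of lower genes, against 1.1% of 16660 promoters of genes tested and 1.29% of all 35116. AP-1, TGANTCA, was in 10.7% and 5.85%, against 5.57% and 7.71%. NF-kB motifs were in 9.41% and 7.98%, against 6.89% and 5.91%, and the cyclic AMP element TGACGTCA was in 2.8% and 1.6%, against 2.64% and 1.85%. The sterol element TCACNCCAC was in 1.53% and 1.06%, against 1.04% and 1.13%. These shares are descriptions of letters in a window. Starts of one gene share sequence, and the AP-1 and cyclic AMP motifs cannot match at the same position.

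Of 22 ERK feedback genes, which are induced by ERK and restrain it, 5 rose the same way (22.7%, against 1.72% of all genes tested) and none fell, with a median of 0.09. DUSP4, a nuclear ERK phosphatase, averaged 0.35 (SE 0.06, edgeR adjusted p = 0.00057) and was separated without overlap in both lines. DUSP7, a cytoplasmic ERK phosphatase, averaged 0.33 but was 0.02 in HaCaT and 0.63 in TIGK, a difference of -0.61 (SE 0.13, edgeR adjusted p = 0.012). PHLDA1 averaged 0.24 (SE 0.06, edgeR adjusted p = 0.032), a call lost in 9 of the 22 alternatives, among them those without TIGK 6 h A or C, TIGK 0 h A, HaCaT 6 h A or C, or HaCaT 0 h B or C.

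Of 13 genes listed for the EGF receptor and its ligands, among which NRG1 was counted, 3 rose the same way (23.1%, against the same 1.72%) and none fell, with a median of -0.01. NRG1, a ligand of ERBB3 and ERBB4, averaged 335 ± 20.2 CPM in HaCaT at 6 h and 274 ± 20.7 CPM in HaCaT at 0 h, and 251 ± 12.7 CPM in TIGK at 6 h and 162 ± 4.86 CPM in TIGK at 0 h (SD, n = 3 each). TGFA averaged 69.4 ± 3.799 CPM in HaCaT at 6 h and 49.8 ± 2.73 CPM in HaCaT at 0 h, and 28.7 ± 2.15 CPM in TIGK at 6 h and 23.3 ± 2.55 CPM in TIGK at 0 h (SD, n = 3 each). EREG averaged 17.1 ± 0.465 CPM in HaCaT at 6 h and 11.3 ± 1.38 CPM in HaCaT at 0 h, and 26.3 ± 2.61 CPM in TIGK at 6 h and 20.1 ± 2.99 CPM in TIGK at 0 h (SD, n = 3 each). The libraries did not overlap in either line for these 3 genes, and their averaged log2 fold changes were 0.46 (SE 0.05, edgeR adjusted p = 2.1e-06) for NRG1, 0.39 (SE 0.08, edgeR adjusted p = 0.002) for TGFA and 0.49 (SE 0.10, edgeR adjusted p = 0.0021) for EREG. NRG1 changed by 0.29 in HaCaT and 0.63 in TIGK, TGFA by 0.48 and 0.30, and EREG by 0.60 and 0.39, and the line difference was not called for any of them.

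The list of integrins and wound matrix held no fall and had a median of 0.19. Of its 23 members tested, 12 rose the same way (52.2%, against 1.72% of all genes tested). They included the laminin chains LAMA3 and LAMB3, of the epidermal basement membrane; the provisional matrix proteins FN1 and THBS1; the integrin chains ITGA2, ITGA3, ITGA5, ITGA6 and ITGB6; and the receptors SDC4 and CD44. LAMA3 had 1228, 1335 and 1327 CPM in HaCaT at 6 h, against 1062, 958 and 1100.3 CPM in HaCaT at 0 h, and 680.3, 659 and 602 CPM in TIGK at 6 h, against 312, 308 and 278 CPM in TIGK at 0 h. LAMB3 had 2583, 2492 and 2553 CPM in HaCaT at 6 h, against 2483, 2290.2 and 2494 CPM in HaCaT at 0 h, and 1167, 1132 and 1016 CPM in TIGK at 6 h, against 529.8, 572 and 475 CPM in TIGK at 0 h. LAMA3 was separated in both lines, whereas the HaCaT libraries of LAMB3 overlapped between times. The averaged log2 fold changes were 0.71 (SE 0.05, edgeR adjusted p = 6.0e-10) for LAMA3 and 0.57 (SE 0.05, edgeR adjusted p = 1.4e-08) for LAMB3.

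The change of both was larger in TIGK, and the line difference, HaCaT minus TIGK, was -0.79 (SE 0.11, edgeR adjusted p = 6.2e-05) for LAMA3 and -1.002 (SE 0.10, edgeR adjusted p = 1.1e-06) for LAMB3. THBS1, thrombospondin 1, had 1847, 2038 and 1985 CPM in HaCaT at 6 h, against 1477, 1285 and 1536 CPM in HaCaT at 0 h. TIGK had 1812, 2016 and 1929 CPM of it at 6 h, against 653, 795 and 762 CPM in TIGK at 0 h. At 6 h the lines reached like levels, with changes of 0.45 in HaCaT and 1.38 in TIGK that averaged 0.92 (SE 0.07, edgeR adjusted p = 2.2e-09). FN1 and ITGA2, both chosen after their values were seen, averaged 0.63 (SE 0.06, edgeR adjusted p = 1.6e-08) and 0.68 (SE 0.07, edgeR adjusted p = 5.9e-08). FN1 encodes fibronectin, with a change of 0.15 in HaCaT and 1.11 in TIGK, and ITGA2 the alpha chain of a collagen-binding integrin, with 0.24 in HaCaT and 1.13 in TIGK. LAMB3, FN1 and ITGA2 lost the averaged call under an additive model of line and time, with no term for the line difference. DUSP7, MMP1, MMP3, PMEPA1, CYR61, HMMR and PC, which are described in other paragraphs, lost it there too.

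Matrix proteases and their inhibitors had no fall and a median of 0.16. Of 22 members tested, 7 rose the same way (31.8%, against 1.72% of all genes tested). These included SERPINB2, which encodes the inhibitor PAI-2, and the secreted proteases MMP1, a collagenase, and MMP3, stromelysin 1. SERPINB2 averaged 54.1 ± 3.204 CPM in HaCaT at 6 h and 38.1 ± 3.34 CPM in HaCaT at 0 h, and 2.64 ± 0.346 CPM in TIGK at 6 h and 1.24 ± 0.343 CPM in TIGK at 0 h (SD, n = 3 each). MMP3 had 27.9, 24.4 and 27.1 CPM in HaCaT at 6 h, against 18.6, 12.3 and 23.1 CPM in HaCaT at 0 h, and 5.19, 6.203 and 4.09 CPM in TIGK at 6 h, against 0.492, 1.33 and 0.643 CPM in TIGK at 0 h. MMP3 was separated in both lines, but its TIGK levels were at most 6.20 CPM at 6 h and 1.33 CPM at 0 h, and the changes were 0.56 in HaCaT and 2.66 in TIGK. MMP1 changed by 0.10 in HaCaT, where the libraries overlapped, and by 1.86 in TIGK. The averaged log2 fold changes were 0.79 (SE 0.12, edgeR adjusted p = 0.00012) for SERPINB2, 1.61 (SE 0.19, edgeR adjusted p = 3.3e-06) for MMP3 and 0.98 (SE 0.10, edgeR adjusted p = 2.1e-06) for MMP1. ADAMTS6, a protease of the ADAMTS family outside that list, averaged 1.35 (SE 0.23, edgeR adjusted p = 0.00033) with no overlap in either line.

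TGF-beta and activin targets had no fall and a median of 0.21. Of 17 members tested, 5 rose the same way (29.4%, against 1.72% of all genes tested), PMEPA1, INHBA, LTBP2 and TGFBI among them. PMEPA1, a feedback inhibitor of TGF-beta signalling, averaged 1.08, with 0.21 in HaCaT and 1.94 in TIGK. LTBP2, a latent TGF-beta binding protein, averaged 0.32 (SE 0.07, edgeR adjusted p = 0.0064). INHBA, which encodes the activin A subunit, had 36.9, 39.3 and 43.7 CPM in HaCaT at 6 h, against 21.5, 19.2 and 33.3 CPM in HaCaT at 0 h. TIGK had 80.1, 77.1 and 73.00 CPM of it at 6 h, against 30.5, 38.8 and 35.9 CPM in TIGK at 0 h. It was separated in both lines and averaged 0.91 (SE 0.10, edgeR adjusted p = 2.0e-06). FST, the activin antagonist follistatin, had 241, 243 and 235 CPM in HaCaT at 6 h, against 162, 159.6 and 162 CPM in HaCaT at 0 h. TIGK had 30.1, 29.9 and 28.4 CPM of it at 6 h, against 11.7, 20.4 and 12.4 CPM in TIGK at 0 h. Ligand subunit and antagonist thus both rose, FST by 0.79 (SE 0.12, edgeR adjusted p = 0.00077).

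Of 19 YAP and TAZ targets tested, 5 rose the same way (26.3%, against 1.72% of all genes tested), with a median of 0.19. ARHGEF17 was the 1 fall of the list (5.26%, against 0.775% of all genes tested). AXL, a receptor tyrosine kinase, averaged 0.40 (SE 0.06, edgeR adjusted p = 0.0002), F3, tissue factor, 0.50 (SE 0.07, edgeR adjusted p = 2.0e-05), NUAK2, a kinase, 0.33 (SE 0.07, edgeR adjusted p = 0.0064) and CYR61, a matricellular protein now named CCN1, 0.34 (SE 0.07, edgeR adjusted p = 0.0053). AXL, F3 and NUAK2 were separated in both lines, and CYR61 in TIGK. Of 22 SRF and MRTF targets, 2 rose the same way (9.09%, against the same 1.72%), with a median of 0.10. FHL2 averaged 0.37 (SE 0.07, edgeR adjusted p = 0.0017), separated in both lines, and ACTN1, alpha-actinin, averaged 0.18 (SE 0.05, edgeR adjusted p = 0.039), a call lost in 10 of the 22 alternatives. Those 10 were the additive model and the fits without any 1 of TIGK 6 h A or B, TIGK 0 h A or C, HaCaT 6 h A, B or C, or HaCaT 0 h B or C.

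Of 20 cytokine and chemokine genes tested, CXCL8 and PTGS2 rose the same way and none fell, with a median of 0.12. The 2 rises are 10% of the list, against 1.72% of all genes tested. CXCL8, the neutrophil-attracting interleukin 8, had 6.796, 3.91 and 4.75 CPM in HaCaT at 6 h, against 1.67, 1.42 and 3.18 CPM in HaCaT at 0 h. TIGK had 6.32, 7.71 and 4.86 CPM of it at 6 h, against 4.98, 3.404 and 3.48 CPM in TIGK at 0 h. It was separated in HaCaT and overlapped in TIGK, at levels under 10 CPM throughout, and averaged 0.99 (SE 0.17, edgeR adjusted p = 0.00079). PTGS2, cyclooxygenase 2, averaged 0.61 (SE 0.13, edgeR adjusted p = 0.0034). Of 17 NF-kB feedback genes, TNFAIP3 and RELB (11.8%, against the same 1.72%) rose and none fell, with a median of 0.12, RELB, an NF-kB subunit, by 0.65 (SE 0.10, edgeR adjusted p = 0.00013).

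BMP targets held falls with the same sign in both lines. Of 18 BMP and SMAD1/5 targets tested, ID1, ID3, SMAD6 and BMP7 fell the same way (22.2%, against 0.775% of all genes tested). FST rose (5.56%, against 1.72% of all genes tested), and the list median was -0.18. By each line's own edgeR test, ID1 was called in TIGK alone, SMAD6 in HaCaT alone, and ID3 and BMP7 in neither. ID1 (chr20:31605283-31606515), an inhibitor of bHLH factors, had 128, 127 and 129 CPM in HaCaT at 6 h, against 185, 192 and 147 CPM in HaCaT at 0 h. TIGK had 63.6, 67.1 and 57.3 CPM of it at 6 h, against 124, 114 and 87.3 CPM in TIGK at 0 h. The 6 h and 0 h libraries did not overlap in either line, and the averaged log2 fold change was -0.62 (SE 0.09, edgeR adjusted p = 0.0003). ID3 had 145, 129 and 147 CPM in HaCaT at 6 h, against 169, 193 and 164 CPM in HaCaT at 0 h, and 90.2, 84.8 and 66.3 CPM in TIGK at 6 h, against 114, 97.2 and 95.2 CPM in TIGK at 0 h. It was also separated in both lines, with like changes of -0.32 in HaCaT and -0.35 in TIGK that averaged -0.33 (SE 0.07, edgeR adjusted p = 0.0089). SMAD6 (chr15:66702228-66782848), an inhibitory SMAD that restrains BMP signalling, had 56.5, 57.4 and 47.7 CPM in HaCaT at 6 h, against 95.3, 86.2 and 82.3 CPM in HaCaT at 0 h. TIGK had 5.72, 7.08 and 3.93 CPM of it at 6 h, against 9.89, 9.69 and 5.900 CPM in TIGK at 0 h. HaCaT was separated, TIGK overlapped at under 10 CPM, and the average was -0.65 (SE 0.12, edgeR adjusted p = 0.0029).

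The rule for named genes, which ranks by the smaller of the lines' changes, gave fallen genes that include KAZALD1, SMAD6, CPLANE2, RBMXL1, ROBO1, ID1, EIF3C, CNNM2, CD40, MYLIP, ID3, COX6B2, PPFIBP2 and RAPGEFL1. ROBO1, the SLIT receptor, had 13.2, 15.8 and 13.8 CPM in HaCaT at 6 h, against 19.7, 18.9 and 20.2 CPM in HaCaT at 0 h, and 20.2, 18.1 and 15.7 CPM in TIGK at 6 h, against 35.8, 25.7 and 28.7 CPM in TIGK at 0 h. KAZALD1, a secreted protein with a Kazal domain, had 6.41, 5.68 and 5.78 CPM in HaCaT at 6 h, against 8.39, 8.17 and 10.9 CPM in HaCaT at 0 h, and 6.99, 8.27 and 6.497 CPM in TIGK at 6 h, against 10.4, 11.7 and 10.97 CPM in TIGK at 0 h. RAPGEFL1, a guanine nucleotide exchange factor-like protein, had 184, 182 and 165 CPM in HaCaT at 6 h, against 231, 233 and 231 CPM in HaCaT at 0 h, and 112, 94.2 and 91.4 CPM in TIGK at 6 h, against 129, 126 and 113 CPM in TIGK at 0 h. All 3 were separated in both lines, and they averaged -0.60 (SE 0.09, edgeR adjusted p = 5.9e-05) for ROBO1, -0.61 (SE 0.12, edgeR adjusted p = 0.003) for KAZALD1 and -0.35 (SE 0.06, edgeR adjusted p = 0.00022) for RAPGEFL1. EIF3C and RBMXL1 have near-identical copies elsewhere in the genome, so their counts are uncertain. Of these genes, 7 lost the call in some of the 22 alternatives, CPLANE2 in 14, COX6B2 in 12, EIF3C in 11, CD40 in 9, MYLIP in 8, CNNM2 in 4 and PPFIBP2 in 3, each time including the fit without HaCaT 6 h A.

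**Figure D3:**
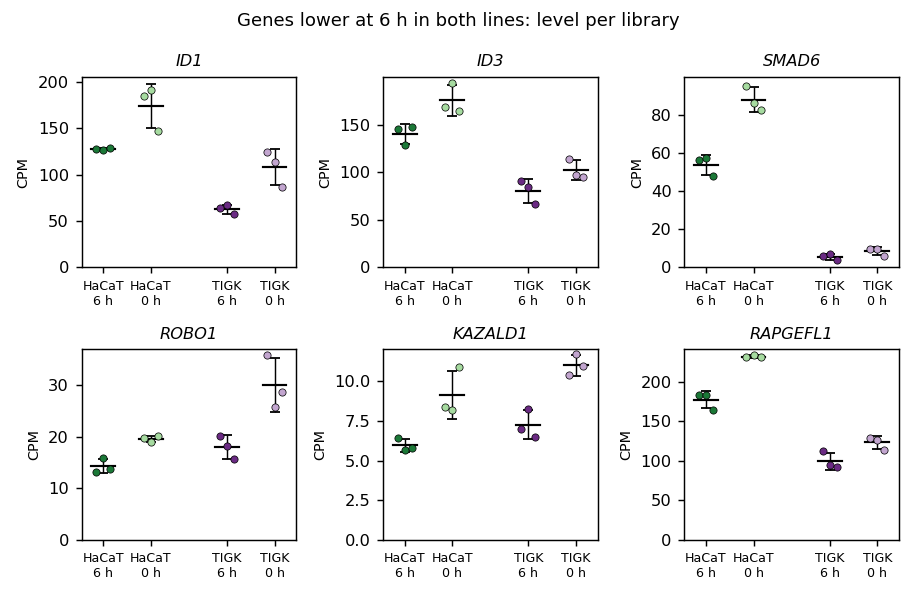
Level in CPM in each library of 6 genes that fell the same way in both lines, 6 h left of 0 h for HaCaT and TIGK, with bars for the mean and SD of 3 libraries. The 6 h points lie below the 0 h points in both lines for all but SMAD6 in TIGK, where they overlap.

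Of 29 genes of cholesterol and fatty acid synthesis tested, 9 fell the same way (31.0%, against 0.775% of all genes tested) and none rose, with a median of -0.17, among them INSIG1, MSMO1, SREBF1, MVD, IDI1, MVK, HSD17B7 and SCD. INSIG1, the sterol sensor that retains SREBP in the endoplasmic reticulum, had 273, 282 and 277 CPM in HaCaT at 6 h, against 309, 312 and 330.3 CPM in HaCaT at 0 h. TIGK had 92.4, 93.9 and 78.5 CPM of it at 6 h, against 152, 152 and 125 CPM in TIGK at 0 h. It was separated in both lines and averaged -0.45 (SE 0.06, edgeR adjusted p = 4.9e-06), and the change was larger in TIGK, with a line difference of 0.51 (SE 0.11, edgeR adjusted p = 0.021). MSMO1, a C-4 demethylase of sterol synthesis, had 71.3, 77.2 and 77.6 CPM in HaCaT at 6 h, against 81.4, 81.9 and 74.6 CPM in HaCaT at 0 h, and 119, 119 and 109 CPM in TIGK at 6 h, against 193, 183 and 167 CPM in TIGK at 0 h. The HaCaT libraries overlapped, and the averaged log2 fold change was -0.36 (SE 0.06, edgeR adjusted p = 0.0002). SREBF1, which encodes the transcription factor SREBP-1, averaged -0.30 (SE 0.06, edgeR adjusted p = 0.0014), with -0.39 in HaCaT and -0.21 in TIGK. HMGCS1, chosen after its values were seen, was called in the average with opposite signs in the lines.

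Of 20 NRF2 targets, 3 fell the same way (15%, against 0.775% of all genes tested) and none rose: TXNRD1, GCLC and SLC7A11, enzymes and a transporter of thioredoxin and glutathione metabolism, averaging -0.30 (SE 0.06, edgeR adjusted p = 0.0033), -0.24 (SE 0.05, edgeR adjusted p = 0.008) and -0.36 (SE 0.09, edgeR adjusted p = 0.013). The call for SLC7A11 was lost without TIGK 0 h C (alone or with 6 h C), HaCaT 0 h B or HaCaT 6 h A. Of 33 G2 and mitosis genes, CDC25B and HMMR fell (6.06%, against the same 0.775%), with a list median of -0.12, which was 0.01 in HaCaT and -0.21 in TIGK. CDC25B, the phosphatase that activates mitotic CDK1, averaged -0.23 (SE 0.05, edgeR adjusted p = 0.0033) and HMMR, a spindle protein, -0.44 (SE 0.09, edgeR adjusted p = 0.0055). None of 30 S phase genes was called, against 1.72% higher and 0.775% lower of all genes tested, which says nothing about that list. VEGFA was the 1 gene called among 28 of hypoxia and glycolysis (3.57%, against 0.775% of all genes tested called lower). A single call says nothing about that list either. VEGFA averaged -0.21 (SE 0.06, edgeR adjusted p = 0.04) and lost its call in 12 of the 22 alternatives. Those included the fits without any 1 of TIGK 6 h A or B, TIGK 0 h B or C, HaCaT 6 h A or B, or HaCaT 0 h A or C.

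Over all genes tested, 1.72% were called higher and 0.775% lower the same way. At those shares a short list may hold no call, and the lack of one says nothing about that list. Several lists of keratinocyte biology held no gene called the same way. None of 37 epidermal differentiation genes was, with a median of 0.01, and KRT13 had 146 ± 2.02 CPM in HaCaT at 6 h and 160.4 ± 4.57 CPM in HaCaT at 0 h, and 947 ± 25.97 CPM in TIGK at 6 h and 882 ± 76.1 CPM in TIGK at 0 h (SD, n = 3 each). None of 11 wound-activated keratins and alarmins was, and KRT17 had 3969.9 ± 294 CPM in HaCaT at 6 h and 4660.4 ± 147 CPM in HaCaT at 0 h, and 4550.0 ± 421 CPM in TIGK at 6 h and 4419.8 ± 322 CPM in TIGK at 0 h (SD, n = 3 each). None of 36 interferon-stimulated genes was, with a median of 0.01 in HaCaT and -0.33 in TIGK. The same held for 18 clock genes, 17 cytosolic heat shock chaperones, 24 p53 targets, 13 mitochondrially encoded transcripts, and the marker lists of 4 other cell types (fibroblasts, melanocytes, immune and endothelial cells). Of 12 keratinocyte markers, LAMB3 and SFN, the 14-3-3 sigma protein of stratified epithelia, rose (16.7%, against 1.72% of all genes tested). SFN averaged 0.46 (SE 0.06, edgeR adjusted p = 3.5e-06), and LAMB3 changed by 0.07 in HaCaT and 1.07 in TIGK. The median of the keratinocyte markers was -0.03 in HaCaT and 0.19 in TIGK, and TP63 was called with opposite signs.

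The remaining lists gave 1 or 2 calls each. The shares called higher were 12.5% of glucocorticoid receptor targets, 5.56% of Notch genes, 4.35% of FOXO targets, 3.85% of stress response genes and 3.125% of ribosome biogenesis genes, against 1.72% of all genes tested. The shares called lower were 4.35% of FOXO targets and 3.85% of stress response genes, against 0.775% of all genes tested. A single call in a list says nothing about that list. Among 16 glucocorticoid receptor targets SGK1, a kinase, rose by 0.61 (SE 0.07, edgeR adjusted p = 2.1e-06) and ANGPTL4, a lipoprotein lipase inhibitor, by 0.59 (SE 0.11, edgeR adjusted p = 0.0013), both separated in both lines. JAG1, a Notch ligand, was the 1 call among 18 Notch genes, at 0.29 (SE 0.07, edgeR adjusted p = 0.02), and RRP12 the 1 among 32 ribosome biogenesis genes, at 0.19 (SE 0.05, edgeR adjusted p = 0.023). Among 23 FOXO targets TXNIP averaged 0.34 (SE 0.08, edgeR adjusted p = 0.016) and RBL2 -0.24 (SE 0.06, edgeR adjusted p = 0.012). Among 26 genes of the unfolded protein and integrated stress responses PPP1R15A averaged 0.38 (SE 0.09, edgeR adjusted p = 0.014) and SLC7A11, which is also an NRF2 target, fell. Single libraries decided several of these calls. JAG1 lost its call without TIGK 6 h A, TIGK 0 h B or C, HaCaT 6 h B or HaCaT 0 h A or B. RRP12 lost it without TIGK 6 h B, TIGK 0 h A, HaCaT 6 h A or B or HaCaT 0 h B or C. TXNIP lost it without TIGK 6 h A or B, HaCaT 6 h C or HaCaT 0 h A or C. PPP1R15A lost it without TIGK 0 h A, HaCaT 6 h A or HaCaT 0 h A, and RBL2 without HaCaT 0 h A.

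**Figure D4:**
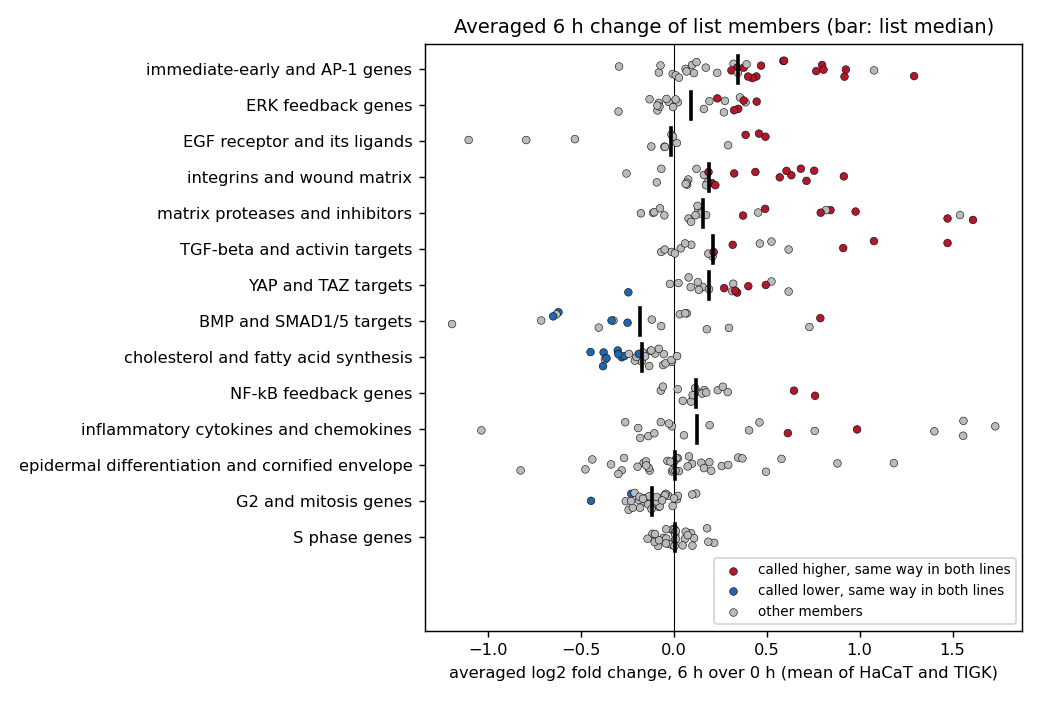
Averaged log2 fold change at 6 h over 0 h of the tested members of 14 gene lists, 1 point a gene, red where called higher and blue where called lower the same way in both lines, with a bar at the list median. The immediate-early and AP-1 list has 15 red points and a median of 0.34, and the cholesterol list 9 blue points and a median of -0.17.

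How far the lines moved together depended on which genes were counted. The fitted changes had the same sign in both lines for 50.7% of all genes tested, and Pearson's r across genes was 0.01. Among 9927 genes at 5 CPM or more in all 4 groups r was 0.13. Genes are not independent replicates, so both values describe these libraries only. Of the 642 genes called in TIGK, 71.2% had the same sign in HaCaT, and of the 44 called in HaCaT, 77.3% had the same sign in TIGK. The 441 genes called higher in TIGK had a median log2 fold change of 0.09 in HaCaT and 0.48 in TIGK, and the 201 called lower had -0.07 in HaCaT and -0.54 in TIGK. The lines called 23 genes in common, 52.3% of the HaCaT calls and 3.58% of the TIGK calls, and 22 of them moved the same way.

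The difference between the lines in their 6 h response was called for 147 genes (0.844% of those tested), 40 of them higher and 107 lower in HaCaT. Of the 434 genes that moved the same way, 56 had a called line difference, 47 among the higher and 9 among the lower genes. COBL, an actin nucleator, was one of the lower genes, with changes of -0.48 in HaCaT and -2.06 in TIGK. PC, pyruvate carboxylase, changed by -0.15 in HaCaT and -0.92 in TIGK. The count of line differences was 77 without TIGK 6 h B, 281 without TIGK 6 h C, and 84, 91 and 92 without HaCaT 0 h A, HaCaT 6 h A and HaCaT 6 h C.

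The authors' deposited tables listed 154 genes for the HaCaT response and 385 for the TIGK response, all at an adjusted p under 0.01. The 40 genes that the authors' deposited tables share are 26.0% of the first and 10.4% of the second. Of these 40 in the authors' deposited tables, 38 have the same direction, 36 higher and 2 lower, and all 38 were among the 434.

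Levels at 24 h after the scratch are given beside the others as means ± SD (n = 3) with no test. IL1RL1 had 17.9 ± 4.35 CPM at 0 h, 38.6 ± 1.57 at 6 h and 0.766 ± 0.309 at 24 h in HaCaT, and 5.17 ± 1.48, 20.2 ± 1.29 and 0.372 ± 0.358 CPM at the same times in TIGK. FAM83A had 139.7 ± 10.3 CPM at 0 h, 199 ± 9.84 at 6 h and 67.4 ± 4.49 at 24 h in HaCaT, and 135 ± 12.3, 199 ± 13.6 and 109 ± 4.43 CPM at the same times in TIGK. ETS1 had 72.99 ± 6.06 CPM at 0 h, 110.0 ± 7.81 at 6 h and 80.3 ± 2.58 at 24 h in HaCaT, and 73.2 ± 5.66, 135 ± 5.81 and 57.7 ± 6.52 CPM at the same times in TIGK. These 3 genes had their highest mean at 6 h in both lines. TNFAIP3 had 37.7 ± 2.91 CPM at 0 h, 61.6 ± 4.05 at 6 h and 274 ± 18.96 at 24 h in HaCaT, and 26.5 ± 2.94, 46.5 ± 3.98 and 35.9 ± 4.38 CPM at the same times in TIGK. Its highest mean was at 24 h in HaCaT and at 6 h in TIGK. ID1 had 175 ± 23.7 CPM at 0 h, 128 ± 0.866 at 6 h and 330.5 ± 27.2 at 24 h in HaCaT, and 108 ± 19.03, 62.7 ± 4.95 and 356 ± 60.95 CPM at the same times in TIGK, and SMAD6 had 87.9 ± 6.64 CPM at 0 h, 53.9 ± 5.34 at 6 h and 203 ± 17.6 at 24 h in HaCaT, and 8.496 ± 2.25, 5.58 ± 1.58 and 37.4 ± 2.52 CPM at the same times in TIGK. Both were lowest at 6 h and highest at 24 h in each line.

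**Figure D5:**
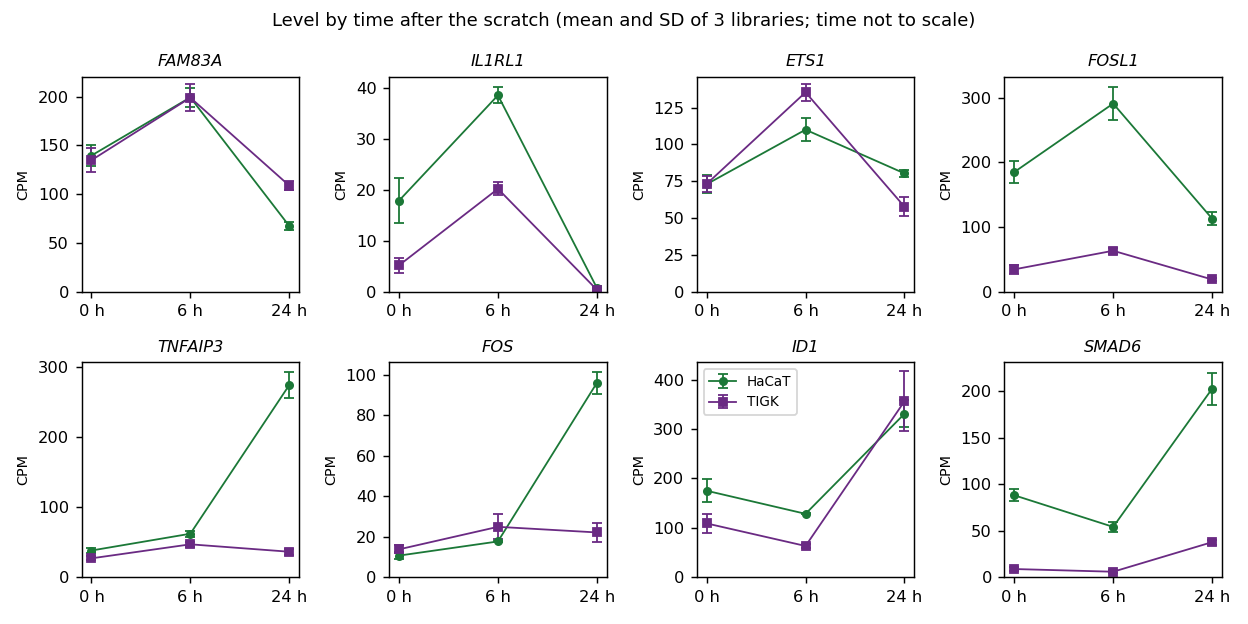
Mean level in CPM with SD (n = 3) of 8 genes at 0 h, 6 h and 24 h in HaCaT (circles) and TIGK (squares), times spaced evenly. FAM83A, IL1RL1, ETS1 and FOSL1 peak at 6 h in both lines, ID1 and SMAD6 are lowest at 6 h, and TNFAIP3 and FOS are highest at 24 h in HaCaT.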

How the data were processed

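Per the labels, Trizol RNA was cleaned on a column kit, and libraries were built from 1 µg of it. HISAT2 2.0.5, StringTie 1.3.3b, featureCounts 1.5.0-p3 and build hg38 are named in the submitters' processing notes; their roles, the annotation release and strand are not given in the sources used here, and without strand a gene and its antisense partner cannot be told apart. The authors deposited whole-number read counts for 58735 genes, and tables with log2 fold changes and adjusted p-values, whose tool is not named. Columns carry a letter, A, B or C, which the labels do not tie to replicate numbers. Nothing says that the 3 libraries of a group were separate cultures, so the spread behind every p-value may be technical. FPKM was not used.

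Counts were filtered with filterByExpr (17409 genes), TMM-scaled and fitted with edgeR 4.0.16 (R 4.3.3; robust quasi-likelihood, 6 group means, all 18 libraries, 12 residual degrees of freedom, prior count 0.125). Tests were two-sided with Benjamini-Hochberg adjustment over all genes tested; a gene was called under 0.05. The SE is the absolute log2 fold change divided by the square root of F. The procedure was tested on simulated data. Named first were the 15 each way with the largest smaller line change. They were protein-coding, called the same way and at 5 CPM or more in the higher group of each line. Added to them were up to 4 per list by lowest p among those called the same way (2 by level where none was). The 5 called genes each way with the largest averaged change and a called line difference came last. Neither addition was limited to protein-coding genes or to 5 CPM, and the last was not limited by sign. Some genes are not reported here. The members, the 33 lists and this rule were chosen with earlier results of these data known. Alternatives used DESeq2 1.42.0, RLE and upper-quartile scaling, other filters, other sets of libraries, an additive model and a letter block.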

Additional observations from a re-analysis of the deposited data

Results flagged for a closer look

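The 6 h response differed between the lines, by the edgeR test of the difference itself with Benjamini-Hochberg adjustment over all genes tested, for these genes named in the text. Values are the log2 response of HaCaT minus that of TIGK, so that a negative value means a lower response in HaCaT. Among matrix and adhesion genes it was -0.79 for LAMA3, -0.93 for THBS1, -1.002 for LAMB3, -0.96 for FN1, -0.89 for ITGA2, -1.76 for MMP1 and -2.11 for MMP3. PMEPA1 had -1.73, DUSP7 -0.61, TP63 -0.66, KRT6A -0.50 and PER1 -0.56. In all of these the response was lower in HaCaT.

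Among genes of sterol metabolism the value was 0.51 for INSIG1, 0.57 for MSMO1 and 0.91 for HMGCS1. It was 1.58 for COBL, 0.77 for PC, 2.05 for VGF, 1.77 for CEMIP and 1.27 for FOXO4. In these genes the fitted log2 change was lower in TIGK than in HaCaT, which need not mean a fall in both. VGF and HMGCS1 had opposite signs in the lines, HMGCS1 with 0.09 in HaCaT and -0.82 in TIGK.

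HS6ST2, PMP22 and AC009041.2 had the fitted values 5.64, 6.06 and 5.07, which depend on the prior count and are no bounds. HS6ST2 had 6, 5 and 5 counts in HaCaT at 6 h, against 0, 0 and 0 in HaCaT at 0 h. PMP22 had 8, 6 and 5 counts in HaCaT at 6 h, against 0, 0 and 0 in HaCaT at 0 h. AC009041.2 had 3, 6 and 5 counts in HaCaT at 6 h, against 0, 0 and 0 in HaCaT at 0 h. All 3 genes were called in the average on these few HaCaT counts.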

How the results depend on the processing

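Of the 86 named genes called in the average, 49 kept the call in all 22 alternatives and 37 lost it in at least 1. HS6ST2 was the 1 gene that reversed, to -0.065 under the additive model. The median averaged change of all genes stayed within 0.02 of 0 under every scaling.

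DESeq2 called 232 genes lower in the average and 219 lower the same way, 107 in HaCaT, 25 in each line and 300 line differences. Without the filter, HaCaT had 121, each line 26 and the line difference 292. The additive model called 71 lower in the average, 70 of them the same way. Without TIGK 0 h C and 6 h C, HaCaT had 85 and each line 18. Same-letter libraries correlated between times in TIGK (0.37, 0.32 and 0.70) but not in HaCaT (-0.04, -0.18 and -0.06). In TIGK letters A and B also correlated with each other (0.20 and 0.26), while C against A or B gave -0.38 to -0.48. The main fit had no replicate block, and whether the letters pair libraries in TIGK was not settled. With the letter as a replicate block, HaCaT had 89, each line 23 and the line difference 259. The block moved the other counts by less than 1.5 times, among them the same-way counts to 372 higher and 191 lower. The fit without edgeR's robust option, chosen after seeing the data, moved no count by 1.5 times. The cause of these shifts was not tested.

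Leaving out 1 library at a time gave 227 to 375 genes higher and 89 to 151 lower in the average, 211 to 344 higher and 76 to 136 lower the same way, 10 to 50 in HaCaT, 367 to 837 in TIGK, 3 to 12 in each line and 77 to 281 line differences.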

Other observations

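The 29 genes called in the average with opposite signs in the lines include genes of other functions. VGF, a secreted neuropeptide precursor, had 15.2, 14.2 and 15.7 CPM in HaCaT at 6 h, against 13.1, 12.2 and 12.8 CPM in HaCaT at 0 h, and 39.8, 36.2 and 30.2 CPM in TIGK at 6 h, against 113, 161 and 98.5 CPM in TIGK at 0 h. Its averaged log2 fold change was -0.79 (SE 0.12, edgeR adjusted p = 0.00052), with the HaCaT libraries higher and the TIGK libraries lower at 6 h and no overlap in either line. HMGCS1, of the mevalonate pathway and chosen after its values were seen, averaged -0.37, with 0.09 in HaCaT and -0.82 in TIGK. TP63, the master regulator of stratified epithelium and likewise chosen afterwards, averaged 0.30, with -0.03 in HaCaT and 0.63 in TIGK. KRT6A, a wound-induced keratin whose reads its near-identical copies KRT6B and KRT6C may share, averaged 0.22, with -0.03 in HaCaT and 0.47 in TIGK.

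SERPINE2 and JUNB were the 2 genes that the authors' deposited tables share with opposite directions. In the authors' deposited tables SERPINE2 had a log2 fold change of 0.42 in HaCaT and -0.60 in TIGK.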
